A study of Rattus norvegicus with 29 samples.

Results

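The comparison described here sets basolateral amygdala taken 6 h after fear conditioning (5 arrays) against the same tissue taken 6 h after pain alone (5 arrays). These are 10 of the 29 rat arrays of the study, and every probe set that is not an array control was considered, 15866 of 15923. The other groups are 9 untreated baseline arrays, 5 arrays 6 h after the inhaled anaesthetic isoflurane and 5 arrays 6 h after conditioning in the presence of isoflurane. Each array measured total RNA on a rat expression array. On it a probe set is a group of short DNA probes, usually meant to report 1 transcript, though some match several.

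Each of the 10 arrays carries its own rat number, 9 to 13 for pain and 24 to 31 for conditioning, so the order of the rats and the group cannot be told apart. Strain, sex, age and the strength of the painful stimulus are not given in the sources used here. The labels abbreviate the conditioning group, and its meaning was taken from the series' own design note. Conditioning includes a painful event, so the subtraction asks what pairing it with learning added at 6 h. The labels state which kit labelled the RNA only for the baseline and the isoflurane groups, so a difference of either group from baseline cannot be told apart from a possible difference in kit.

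In fear conditioning an animal learns that a signal predicts a painful event, and the basolateral amygdala, built mainly of glutamatergic projection neurons with fewer GABAergic interneurons, is needed for this learning. Neuronal activity first switches on immediate early genes such as Fos, Egr1 and Arc, and later waves of transcription follow as memory is stabilised. Pain on its own also activates the amygdala and the stress axis. Here it is meant as the control that has a painful event but not the trained association. Whether the stimulus was equally strong in both groups is not given.

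Levels are given below on the log2 scale after quantile normalization, where a difference of 1 is a doubling, and differences are conditioning minus pain from limma, a linear model with a spread shared across genes. Pain replicate 3 stood apart from the other 9 arrays before any comparison was made. Its median deposited signal was 292.2 against 226.5 to 249.95 on the others, and 0.851% of its probe sets lay at or below the floor of 16 against 6.55% to 8.16%. Its mean correlation with the other arrays of its group was 0.914 against 0.951 to 0.961, and the first principal component of the 10 arrays (33.5% of the variance) placed it at 48.0, with the others between -10.4 and -0.15. For single genes at an unadjusted p under 0.05 whose difference moved by more than 1.5 times when it was left out, the value without it is also given.

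Of 18 markers of projection neurons, 11 were on the array and 8 had enough signal to be tested. The tested ones included Slc17a7 and Slc17a6, the vesicular glutamate transporters, and Camk2a. Tbr1, Emx2 and Cux2, transcription factors of cortical projection neurons, lay under the filter on low signal. Of the 8, 4 were higher and 4 lower after conditioning, with a median difference of -0.0030 and none at an unadjusted p under 0.05. Markers of the neighbouring striatum were present on arrays of both groups, with a summed linear signal of 5295 to 12678 after conditioning and 6394 to 13736 after pain. Of 11 striatal markers tested, 3 were higher and 8 lower (median -0.13), and of 7 from hypothalamus and thalamus, 4 were higher and 3 lower (median 0.04). Their part in the results below was not tested.

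No single transcript passed the test. Among 9520 probe sets with enough signal, limma with Benjamini-Hochberg adjustment called 0 (0%) at 0.05, with a lowest adjusted p of 0.0937. Of all 9520, 4788 were higher after conditioning (50.3%). At an unadjusted p under 0.05 there were 861 (9.04%), of which 451 were higher after conditioning (4.74%) and 410 lower (4.31%), where 476 are expected by chance. With arrays centred on their medians in place of quantile normalization the split was 540 higher and 177 lower (75.3% higher, against 52.4%), as that scaling moved the median of all genes to 0.04. All 5 arrays of one group lay beyond all 5 of the other for 108 probe sets (1.13%), 49 with conditioning higher (0.515%) and 59 lower (0.62%).

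Without pain replicate 3 the adjusted count was again 0 (0%), with a lowest adjusted p of 0.114. There were then 733 at an unadjusted p under 0.05 (7.7%), 347 higher (3.64%) and 386 lower (4.05%), and 201 (2.11%) whose groups did not overlap. Of these, 461 were shared with the full set, which is 53.5% of the list with all arrays and 62.9% of the list without it.

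The intervals bound how large a difference these arrays could have missed. The median standard error of a difference was 0.14, so that a typical 95% interval reached 0.29 to either side. The interval lay within 1 log2 unit of 0 for 96.5% of probe sets and within 0.5 for 65.3%. Differences of 1 or more in size were measured for 18 probe sets (0.189%) and of 0.5 or more for 256 (2.69%). The scatter of differences against p shows how few probe sets combine a large difference with groups that do not overlap.

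**Figure D1:**
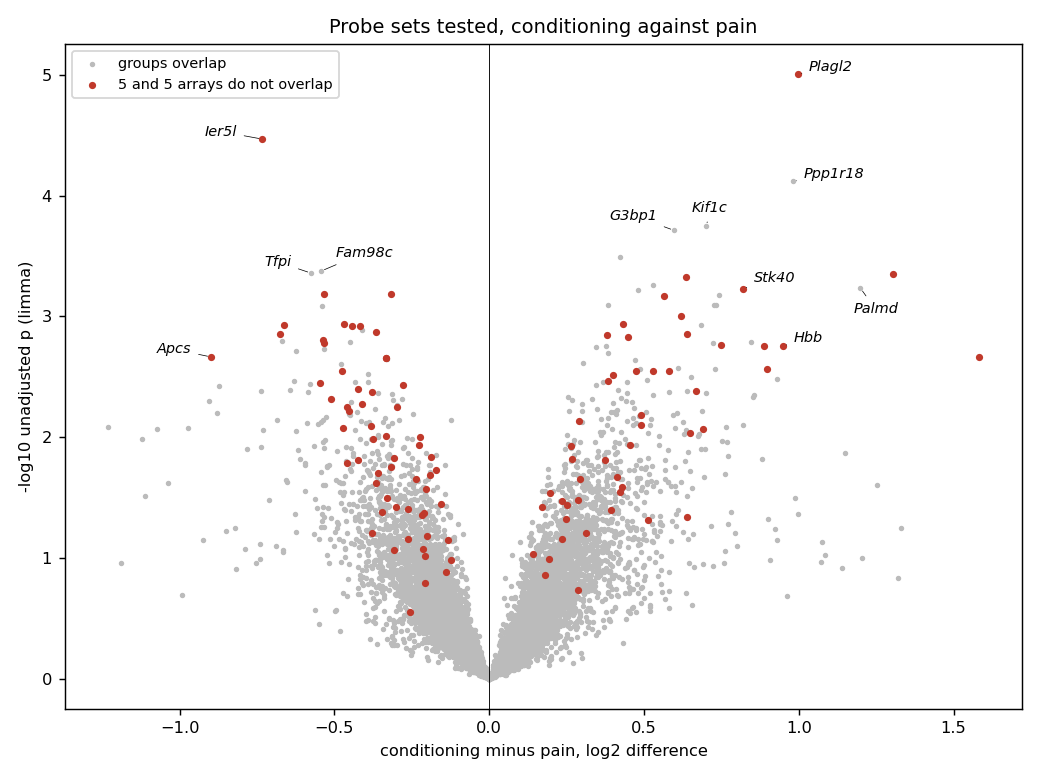
Each point is 1 of the 9520 probe sets tested, with the log2 difference of conditioning minus pain on the horizontal axis and minus log10 of the unadjusted limma p on the vertical axis. Red points are the 108 probe sets whose 5 conditioning and 5 pain arrays do not overlap, and Plagl2 and Ier5l have the lowest p of those higher and lower.

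The gene with the lowest p was Plagl2, which encodes a zinc-finger transcription factor of the PLAG family (probe set 1373091_at). Its level read 7.70, 7.93, 7.96, 7.87 and 7.84 on the conditioning arrays and 6.85, 7.26, 7.05, 6.90 and 6.26 on the pain arrays. Every conditioning array was above every pain array, and the fifth pain array was the lowest. The difference was 1.00 (SE 0.19, 95% interval 0.61 to 1.38, adjusted p 0.0937 by limma), or 2.00-fold, and it was 1.05 (adjusted p 0.114) without pain replicate 3. Baseline arrays averaged 7.31 (SD 0.39, n = 9), between both groups, and fitted differences from baseline were 0.56 for conditioning and -0.44 for pain.

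Ier5l, a relative of the immediate early response gene Ier5, had the lowest p among genes lower after conditioning (probe set 1389675_at). Its level read 7.09, 7.02, 7.30, 7.30 and 7.03 after conditioning and 7.46, 7.57, 8.36, 8.11 and 7.92 after pain. Again the groups did not overlap, and pain replicate 3 was the highest array. The difference was -0.73 (SE 0.15, 95% interval -1.04 to -0.42, adjusted p 0.162 by limma), and -0.62 (adjusted p 0.564) without that array. Here the pain mean lay 0.14 above baseline and the conditioning mean -0.59 from it, so that conditioning stood farther from the untreated level.

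**Figure D2:**
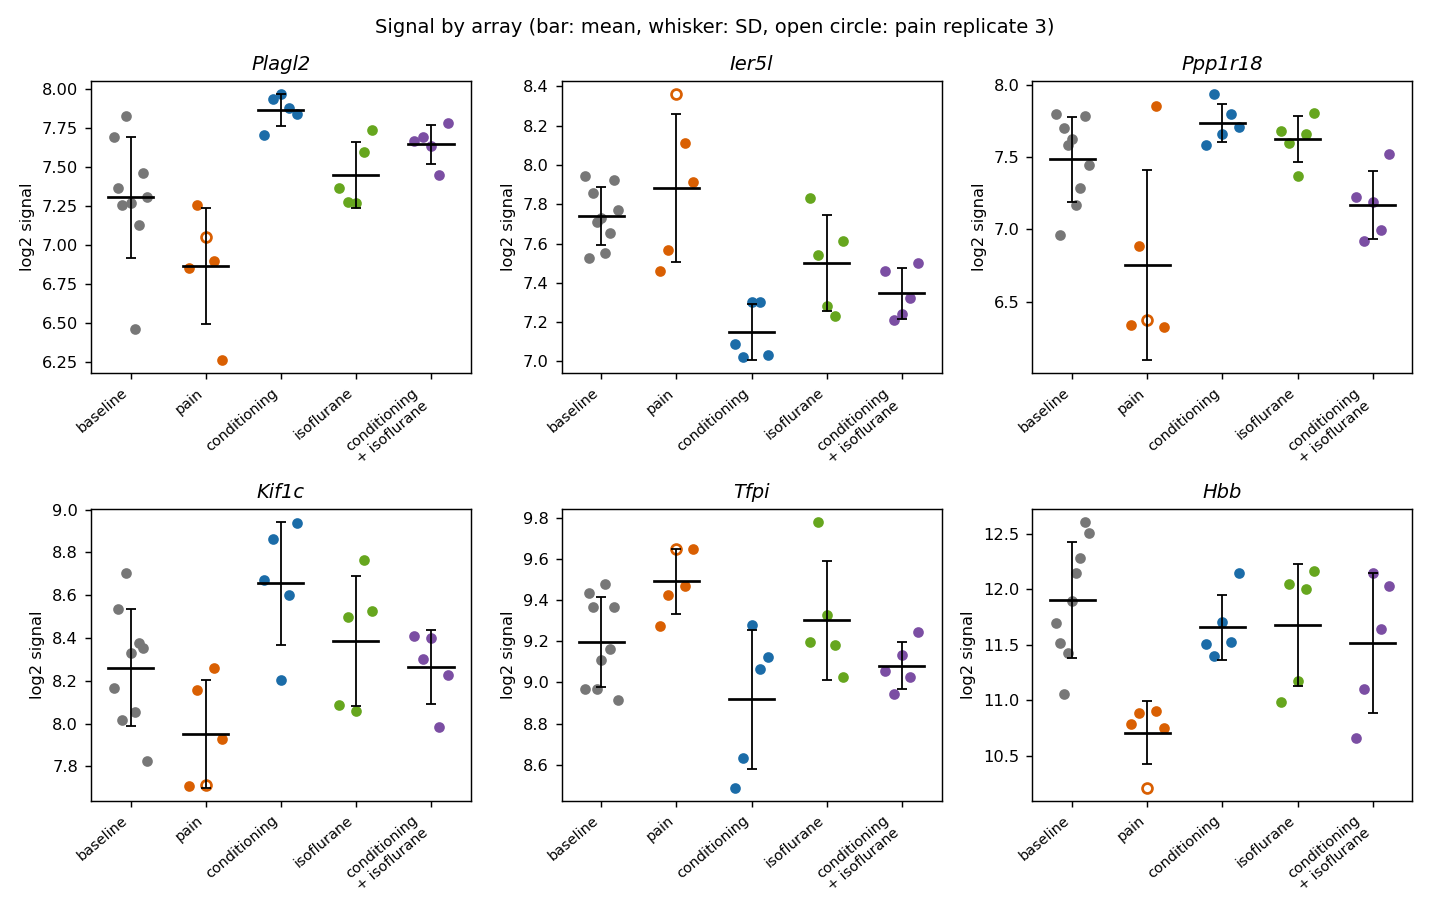
Log2 signal of Plagl2, Ier5l, Ppp1r18, Kif1c, Tfpi and Hbb on each of the 29 arrays by group, with the mean as a bar and the SD as a whisker, and pain replicate 3 as an open circle. Conditioning and pain do not overlap for Plagl2, Ier5l and Hbb, while 1 or more arrays overlap for Ppp1r18, Kif1c and Tfpi.

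Both lead genes are single probe sets on this array, and their promoters are shown with those of Stk40 and Psmd9, in which a searched motif was found. Promoter sequence (250 bases before to 50 after the start) comes from RefSeq, build GRCr8, in which Plagl2 lies at chr3:162168699-162168998 (minus strand), Ier5l at chr3:34143408-34143707 (minus), Stk40 at chr5:143665450-143665749 (plus) and Psmd9 at chr12:39018215-39018514 (minus). Sequences run 5′ to 3′ on the strand of the gene, and capitals mark the motif. In Stk40 that is TGACTCA, the AP-1 element bound by Fos and Jun proteins, from base -179, and in Psmd9 it is the E-box CACGTG from base -106.
Plagl2: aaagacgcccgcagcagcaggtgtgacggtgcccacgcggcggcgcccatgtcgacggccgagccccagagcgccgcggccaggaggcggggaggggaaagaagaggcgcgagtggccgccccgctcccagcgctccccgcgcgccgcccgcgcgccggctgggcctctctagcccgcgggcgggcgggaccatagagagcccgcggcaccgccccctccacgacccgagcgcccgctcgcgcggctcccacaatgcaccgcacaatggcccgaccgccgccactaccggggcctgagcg
Ier5l: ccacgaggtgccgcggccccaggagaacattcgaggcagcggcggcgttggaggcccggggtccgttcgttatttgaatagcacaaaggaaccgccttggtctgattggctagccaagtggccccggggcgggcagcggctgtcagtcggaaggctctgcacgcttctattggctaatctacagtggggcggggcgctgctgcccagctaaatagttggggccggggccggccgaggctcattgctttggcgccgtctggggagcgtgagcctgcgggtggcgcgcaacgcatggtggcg
Stk40: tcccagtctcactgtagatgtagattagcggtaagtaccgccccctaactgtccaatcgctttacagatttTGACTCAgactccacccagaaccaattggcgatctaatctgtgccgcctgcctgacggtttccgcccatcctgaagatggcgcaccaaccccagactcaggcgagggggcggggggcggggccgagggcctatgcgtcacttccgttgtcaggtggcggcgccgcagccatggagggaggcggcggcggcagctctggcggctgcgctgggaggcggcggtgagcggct
Psmd9: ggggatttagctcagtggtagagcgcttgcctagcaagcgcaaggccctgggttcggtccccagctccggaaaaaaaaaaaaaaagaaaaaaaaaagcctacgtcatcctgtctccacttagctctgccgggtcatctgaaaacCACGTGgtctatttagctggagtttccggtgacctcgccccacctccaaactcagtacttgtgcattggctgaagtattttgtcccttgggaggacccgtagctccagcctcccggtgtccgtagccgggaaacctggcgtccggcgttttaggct

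Motifs were looked for on both strands in the promoters of the 12 higher and 12 lower genes with the lowest p, of which 12 and 11 were found in the RefSeq table. The AP-1 letters TGACTCA stood in 1 of 12 higher and 0 of 11 lower genes, and in 4.63% of all 33469 promoters. The E-box CACGTG stood in 0 of 12 higher and 2 of 11 lower genes (Psmd9 and Tfpi), and in 6.42% of all promoters. The cyclic AMP response element TGACGTCA (1.83% of all promoters), the EGR site GCGTGGGCG (0.544%) and the palindromic glucocorticoid response element (0.0149%) were in none of these promoters. A match is a description of these letters in this window.

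The other higher genes with the lowest p were of mixed function. Ppp1r18, an actin-binding regulatory subunit of protein phosphatase 1, read 7.59, 7.93, 7.66, 7.80 and 7.71 after conditioning and 6.34, 6.89, 6.37, 7.86 and 6.32 after pain, a difference of 0.98 (SE 0.21, adjusted p 0.242 by limma). The fourth pain array alone lay within the conditioning range. Without it the difference was 1.26 (adjusted p 0.000558 by limma), but leaving out the array that overlaps widens the difference by construction. Of the 18 alternative settings in which Ppp1r18 was tested, only this 1 called it. Without pain replicate 3 the difference was 0.89 (adjusted p 0.564 by limma). Kif1c, a kinesin motor, read 8.67, 8.86, 8.20, 8.60 and 8.94 against 7.71, 8.16, 7.71, 8.26 and 7.93, a difference of 0.70 (SE 0.16, adjusted p 0.356 by limma), with 1 array of each group overlapping.

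G3bp1, an RNA-binding protein that nucleates stress granules, differed by 0.60 (adjusted p 0.356 by limma), and its second tested probe set by 0.28. Stk40, a serine/threonine kinase, read 7.44 to 7.85 after conditioning and 6.55 to 7.33 after pain, without overlap, a difference of 0.82. Palmd, which encodes palmdelphin, had the largest difference of the 12 at 1.20, but its other 2 tested probe sets gave -0.00057 and -0.39, so the probe sets of this gene differed in sign. The remaining higher genes included Xab2 (0.73), a splicing and DNA repair factor, and Epb41 (0.64), the protein 4.1 of the red cell membrane skeleton. Col5a2 (0.62), a collagen chain, Pmp22 (0.56), a myelin protein, Myef2 (0.53) and Cep350 (0.38), a centrosomal protein, were the others. The other tested probe set gave only 0.14 for Col5a2 and 0.04 for Pmp22.

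Among the lower genes, Tfpi, an inhibitor of blood coagulation, read 8.49, 8.63, 9.28, 9.07 and 9.13 after conditioning and 9.28, 9.42, 9.65, 9.47 and 9.65 after pain, a difference of -0.58 (SE 0.15, adjusted p 0.356 by limma). The groups met at 9.28, the highest conditioning and the lowest pain array. Another Tfpi probe set, under the filter, differed by 0.54, opposite in sign. Slc6a7, the brain proline transporter found at glutamatergic terminals, differed by -0.54. It ranged from 7.91 to 8.65 after conditioning and from 8.58 to 9.49 after pain, so the ranges overlapped slightly. Ppm1l, a protein phosphatase of the 2C family, read 8.78 to 9.11 after conditioning and 9.26 to 9.93 after pain, a difference of -0.66, with -0.13 in its other tested probe set.

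Psmd9, an assembly chaperone of the proteasome (-0.42), Ube2s, the ubiquitin-conjugating enzyme of the anaphase-promoting complex (-0.41), Serp2, of the endoplasmic reticulum (-0.44), Mrps25, of the mitochondrial ribosome (-0.32), and Ccdc51, a mitochondrial potassium channel subunit (-0.36), each had adjusted p between 0.356 and 0.367 by limma. Fam98c (-0.54), Plekhj1 (-0.53) and Lrrc75a (-0.47) complete the 12.

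Of the 24 genes, 13 had groups that did not overlap. All 24 kept their sign and an unadjusted limma p under 0.05 without pain replicate 3, with a median size of 0.57 with it and 0.53 without. The genes were chosen for a low p on these same arrays, so these counts follow in part from that choice. The pain mean lay below baseline for 12 of 12 higher genes and above it for 12 of 12 lower genes. Conditioning and pain lay on opposite sides of baseline for 23 of 24, and pain was the farther for 15. These positions follow in part from choosing the genes by their difference between both groups, and the arrays are shared, so they are given as levels only. In each of pain minus baseline (853 probe sets at an unadjusted p under 0.05, 8.96%) and conditioning minus baseline (966, 10.1%), limma called 0 after adjustment. It also called 0 in conditioning minus conditioning under isoflurane, with 351 at an unadjusted p under 0.05 (3.69%).

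A separate set of arrays, conditioning under isoflurane minus isoflurane, shares none of these 10. The labels name a kit for the isoflurane arrays, and whether both groups of this comparison shared it was not tested. There limma called 0 after adjustment, with 381 probe sets at an unadjusted p under 0.05 (4%). The sign was the same as here for 56.2% of all probe sets and for 13 of the 24 genes, made up of 3 of 12 higher and 10 of 12 lower genes, 1 of them at an unadjusted p under 0.05. Plagl2 differed there by 0.20 and Ier5l by -0.15, against 1.00 and -0.73 here. Whether isoflurane altered these differences was not tested.

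**Figure D3:**
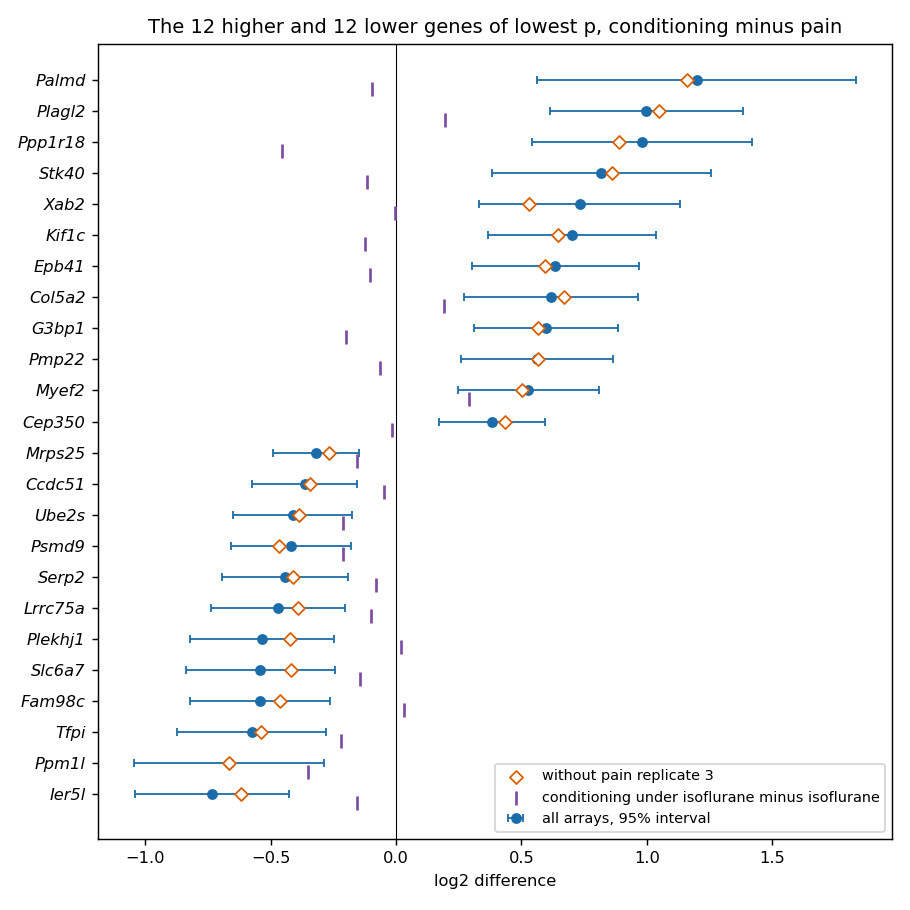
Log2 difference of conditioning minus pain for the 24 genes, with the 95% interval from all arrays (circles), the value without pain replicate 3 (diamonds) and the difference of conditioning under isoflurane minus isoflurane (ticks). Circles and diamonds lie on the same side of 0 for all 24 genes, and ticks do so for 13. The genes were chosen by p on the arrays behind the circles, and the diamonds reuse those arrays.

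Gene lists were described on 7049 genes, with probe sets of a gene averaged, of which 48.6% were higher after conditioning (median difference -0.0052). At an unadjusted p under 0.05, 309 genes were higher (4.38%) and 323 lower (4.58%), and 0 passed adjustment (lowest adjusted p 0.0647 by limma). The groups did not overlap for 1.16% of genes. The lists are small and their medians were sensitive to single arrays: leaving out 1 array at a time, 16 of 28 medians kept their sign throughout, and 26 moved by more than 1.5 times at least once. Of 34 probe sets chosen from the lists at an unadjusted p under 0.05, 18 were also under it without pain replicate 3.

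**Figure D4:**
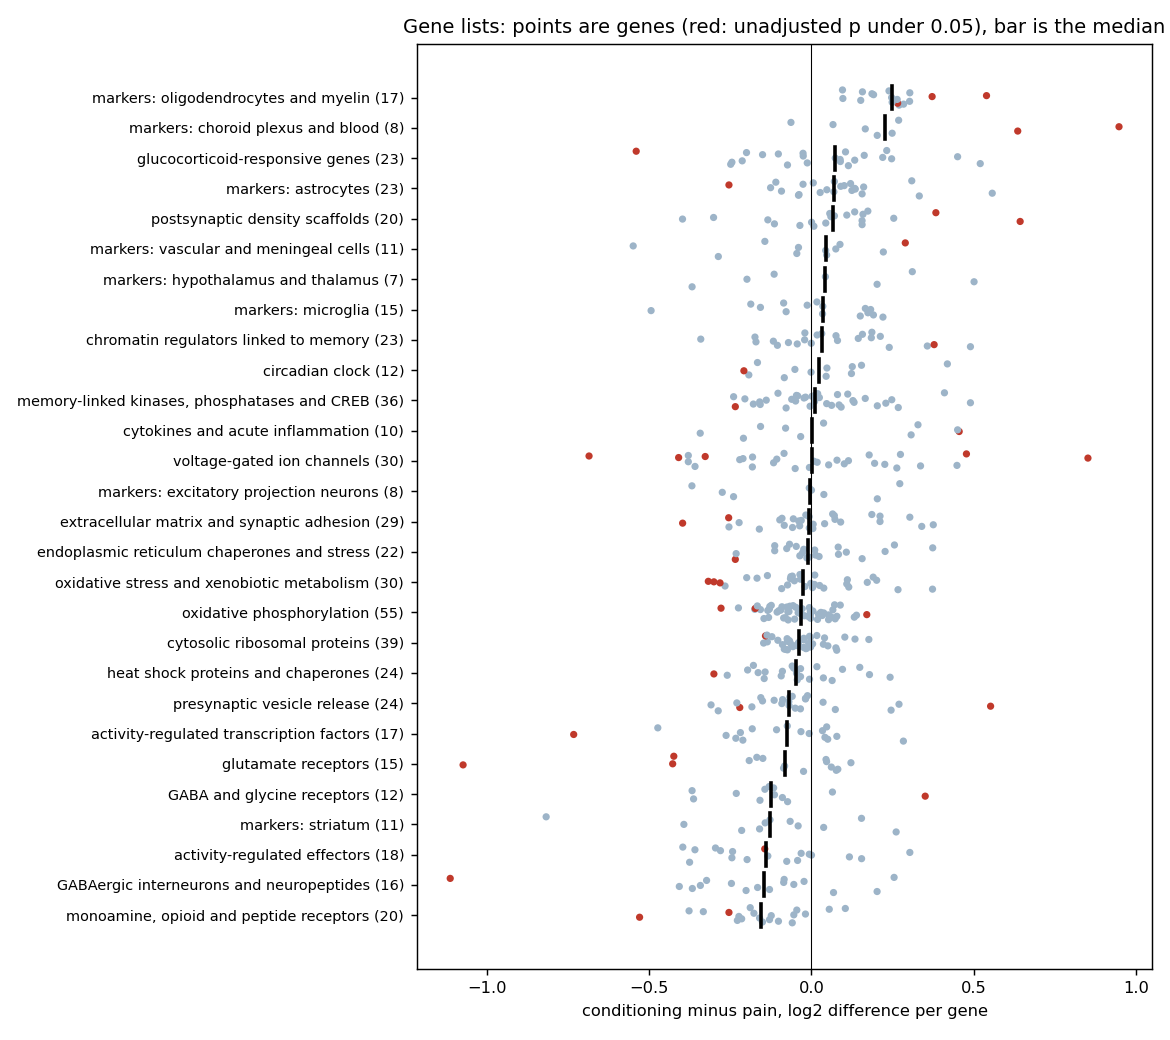
Log2 difference of conditioning minus pain for each tested gene of 28 lists (points, red where the unadjusted p is under 0.05), with the list median as a bar and the number of tested genes in brackets. With all arrays, medians run from -0.16 for monoamine, opioid and peptide receptors to 0.25 for oligodendrocytes and myelin.

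Of 17 activity-regulated transcription factors tested, 6 were higher and 11 lower (median -0.07), and Ier5l alone was at an unadjusted p under 0.05. Fos averaged 7.89 (SD 0.36, n = 5) after conditioning and 7.81 (SD 0.80, n = 5) after pain, a difference of 0.08 with a 95% interval of -0.75 to 0.90. Egr1 (-0.21), Junb (-0.22) and Nr4a1 (-0.18), other rapid response factors, had 95% intervals that spanned 0.

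Activity-regulated effectors, proteins such as Arc that act at synapses and in signalling rather than on transcription, were lower for 14 of 18 (median -0.14). The median was -0.04 without pain replicate 5 and -0.05 without conditioning replicate 2. Rheb, the small GTPase that activates mTOR, was the only one at an unadjusted p under 0.05, with a difference of -0.14. Another Rheb probe set, under the filter, differed by 0.14, opposite in sign. Arc averaged 9.20 (SD 0.26, n = 5) against 9.28 (SD 0.34, n = 5), a difference of -0.08 (95% interval -0.45 to 0.30), and the growth factor Bdnf differed by -0.04 (-0.57 to 0.49). The neuropeptide precursor Vgf (-0.40), the signalling regulator Rgs4 (-0.36) and Scg2 (-0.30) had larger differences, none at an unadjusted p under 0.05.

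Glutamate receptors gave 6 higher and 9 lower of 15 (median -0.08), with 3 lower at an unadjusted p under 0.05. Grin2a, the NMDA receptor subunit GluN2A, read 4.71, 7.28, 7.38, 7.91 and 7.42 after conditioning and 7.87, 8.22, 8.89, 7.49 and 7.60 after pain, a difference of -1.07 (adjusted p 0.474 by limma). The first conditioning array was far below all others, and without it Grin2a differed by -0.52. Another Grin2a probe set, under the filter, differed by -0.06. Grin2b, the subunit GluN2B, differed by -0.43, and by -0.67 without pain replicate 2. The metabotropic receptor gene Grm8 differed by -0.42. Its probe set with the lowest p gave -0.60, and -0.32 (unadjusted limma p 0.177) without pain replicate 3. A Grm8 probe set under the filter differed by 0.31. The AMPA receptor subunits Gria1 (-0.02) and Gria2 (0.08) and the obligatory NMDA subunit Grin1 (-0.08) were near 0.

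Postsynaptic density scaffolds gave 15 higher and 5 lower of 20 (median 0.07), and 12 higher and 8 lower (median 0.055) without pain replicate 3. Dlgap3, a scaffold of the PSD-95 complex, differed by 0.64 at an unadjusted p under 0.05. Both of its probe sets were higher (0.77 and 0.51), and the first gave 0.43 (unadjusted limma p 0.104) without pain replicate 3. Shank3, a master scaffold beneath the density, differed by 0.38, with an unadjusted limma p of 0.0495 over genes and 0.0513 over probe sets.

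Presynaptic genes were lower for 19 of 24 (median -0.07), but for 13 of 24 without conditioning replicate 2 (median -0.01) or with arrays centred on their medians. Napa, the alpha-SNAP protein that recycles fusion complexes, differed by -0.22, and by -0.14 without conditioning replicate 2. Pclo, a scaffold of the active zone, differed by 0.55 and read 6.04 on pain replicate 3, against 7.70 to 8.10 on the other pain arrays. Without that array Pclo differed by 0.18 (unadjusted limma p 0.245). Another Pclo probe set, under the filter, differed by -0.04.

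GABA and glycine receptors were lower for 10 of 12 (median -0.12, and -0.07 without conditioning replicate 1 or 2), although the single gene at an unadjusted p under 0.05, the receptor subunit Gabrb1, was higher (0.35). Markers of interneurons and their peptides were lower for 13 of 16 (median -0.15). Tac3, which encodes neurokinin B, read 6.93, 5.42, 7.61, 8.34 and 7.79 after conditioning and 8.33, 9.03, 7.96, 8.28 and 8.06 after pain, a difference of -1.11 (adjusted p 0.532 by limma), and the second conditioning array was the lowest. Without that array Tac3 differed by -0.67, 9 of 16 of the list were lower and the median was -0.07. Gad2 (-0.41) and Gad1 (-0.17), the enzymes of GABA synthesis, and Npy (-0.25) were not at an unadjusted p under 0.05.

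Receptors for monoamines, opioids and peptides were lower for 18 of 20 (median -0.16). Their summed linear signal, in which high-signal genes weigh most, was 8001 to 9047 after conditioning and 9554 to 10618 after pain, without overlap. Ntsr2, a high-signal member that is also on the astrocyte list, averaged 11.30 after conditioning and 11.56 after pain. The list score, the mean of the centred log2 levels in which each gene counts alike, did overlap, from -0.21 to -0.01 after conditioning and from -0.06 to 0.18 after pain. Htr1b, a serotonin autoreceptor, differed by -0.53 (-0.35, unadjusted limma p 0.120, without pain replicate 3) and Ntsr2, a neurotensin receptor found in astrocytes, by -0.25, both at an unadjusted p under 0.05 with all arrays. The nociceptin receptor Oprl1 differed by -0.33 and the somatostatin receptor Sstr1 by -0.38. Without pain replicate 3, 15 of 20 were lower (median -0.15).

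Voltage-gated ion channels divided evenly, 15 higher and 15 lower of 30 (median 0.00). At an unadjusted p under 0.05, 2 were higher and 3 lower, and not all of these are named here. Within the A-type potassium current, Kcnd3, the channel subunit Kv4.3, differed by 0.85, while the auxiliary subunits Kcnip4 (-0.69) and Kcnip3 (-0.33) were lower. Further probe sets under the filter differed by -0.38 for Kcnd3, opposite in sign, and by -0.51 for Kcnip3. Kcnd3 read 8.58, 9.64, 9.36, 9.53 and 9.40 after conditioning and 8.78, 8.25, 7.78, 8.85 and 8.57 after pain, where the first conditioning array alone lay within the pain range. Kcnh1 (-0.41), another potassium channel, was also at an unadjusted p under 0.05 with all arrays.

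Memory-linked kinases, phosphatases and CREB genes gave 20 higher and 16 lower of 36 (median 0.01), 17 and 19 without pain replicate 3, and 27 and 9 with arrays centred on their medians. Atf4, a stress-responsive transcription factor, differed by -0.23 at an unadjusted p under 0.05, and by -0.13 (unadjusted limma p 0.236) without pain replicate 3.

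Glucocorticoid-responsive genes gave 12 higher and 11 lower of 23 (median 0.07), and 10 higher and 13 lower (median -0.02) without pain replicate 3. Fkbp5, a co-chaperone of the glucocorticoid receptor, differed by -0.21, and Sult1a1, a sulfotransferase, by -0.54 (-0.29 without pain replicate 1). Heat shock proteins were lower for 17 of 24 (median -0.05), and for 12 of 24 with arrays centred on their medians. Among them was Hmox1, the haem-degrading enzyme, at -0.30. Adhesion and matrix genes gave 13 higher and 16 lower of 29 (median -0.01), with the IgLON adhesion proteins Lsamp (-0.40) and Opcml (-0.25) at an unadjusted p under 0.05.

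Oxidative phosphorylation was lower for 37 of 55 genes (median -0.03) and cytosolic ribosomal proteins for 29 of 39 (median -0.04), but these counts turn with the scaling: with arrays centred on their medians, 33 of 55 and 30 of 39 were higher. Ndufs8, a subunit of respiratory complex I, differed by -0.28 and its partner Ndufs7 by -0.17, while Cox7c, of complex IV, differed by 0.17. Ribosomal Rps6, the target of S6 kinase, differed by -0.14. Endoplasmic reticulum, clock, chromatin, cytokine and oxidative stress lists had medians between -0.03 and 0.03.

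Markers of oligodendrocytes and myelin were higher after conditioning for 17 of 17 tested genes (median 0.25), 3 of them at an unadjusted p under 0.05. The direction held for 17 of 17 with the deposited scaling, with arrays centred on their medians, without pain replicate 3 (median 0.28) and without conditioning replicate 2 (median 0.19). Myrf, the transcription factor that drives myelin genes, read 8.71, 9.12, 8.58, 9.18 and 9.84 after conditioning and 8.68, 8.32, 8.95, 8.53 and 8.27 after pain, a difference of 0.54. Mog (0.37) and Cnp (0.27), proteins of the myelin sheath, were the others. Without conditioning replicate 5, the highest array for Myrf, Myrf differed by 0.35 and Mog by 0.20. The abundant myelin gene Mbp differed by 0.10 and Mag by 0.15, neither at an unadjusted p under 0.05.

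The 17 genes were read on the same arrays and are not separate observations. The list score was -0.09, 0.33, 0.09, 0.21 and 0.49 on the conditioning arrays and -0.09, 0.04, 0.13, -0.08 and -0.21 on the pain arrays. The scores overlapped, with conditioning replicates 5 and 2 the highest and replicates 1 and 3 inside the pain range. The median member stood 0.25 above baseline after conditioning and 0.02 above it after pain, and it was 0.04 in conditioning under isoflurane minus isoflurane. In tissue of this kind more oligodendrocytes and more RNA per oligodendrocyte cannot be told apart.

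Other glial lists had smaller medians. Astrocyte markers gave 16 higher and 7 lower of 23 (median 0.07), and without conditioning replicate 2 the count was 12 and 11 (median 0.01). Microglia markers gave 9 higher and 6 lower of 15 (median 0.03), and vascular and meningeal markers 6 and 5 of 11 (median 0.04), where the glucose transporter Slc2a1 differed by 0.29.

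Markers of choroid plexus and blood were higher after conditioning for 7 of 8 (median 0.23). Hbb, which encodes the beta chain of haemoglobin, read 11.51, 11.40, 11.71, 11.52 and 12.14 after conditioning and 10.78, 10.88, 10.21, 10.91 and 10.75 after pain, a difference of 0.95 (adjusted p 0.367 by limma) without overlap, and 0.83 without pain replicate 3. Its probe set can pick up near-identical globin genes. It was the pain arrays that stood away from baseline, by -1.19, against -0.25 for conditioning. The probe sets with the largest differences of all those without overlap, 1371245_a_at (1.58) and 1371102_x_at (1.31), carry several gene symbols each and are not named here.

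The summed linear signal of the 8 markers, in which high-signal genes such as Hbb weigh most, was 5058 to 7654 after conditioning and 3500 to 3872 after pain. List scores of -0.08 to 0.43 and -0.37 to -0.09 did not overlap either. Epb41 (0.64) belongs to the same list and to the 24 genes. By gene, 2 of the 8, Hbb and Epb41, had groups that did not overlap, against 1.16% of all genes tested. Both enter the sum and the score, and both were also named for a low p or for no overlap on these arrays. The list without these 2 genes was not examined. Ttr, the defining gene of choroid plexus, differed by 0.27 with a 95% interval of -1.41 to 1.94. Kl and Otx2, further choroid plexus genes, were below the filter, with 60% and 50% of their values at the floor. Alas2 and Ahsp, genes of red cell precursors, were below the filter too. The part of blood in the other differences was not tested.

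**Figure D5:**
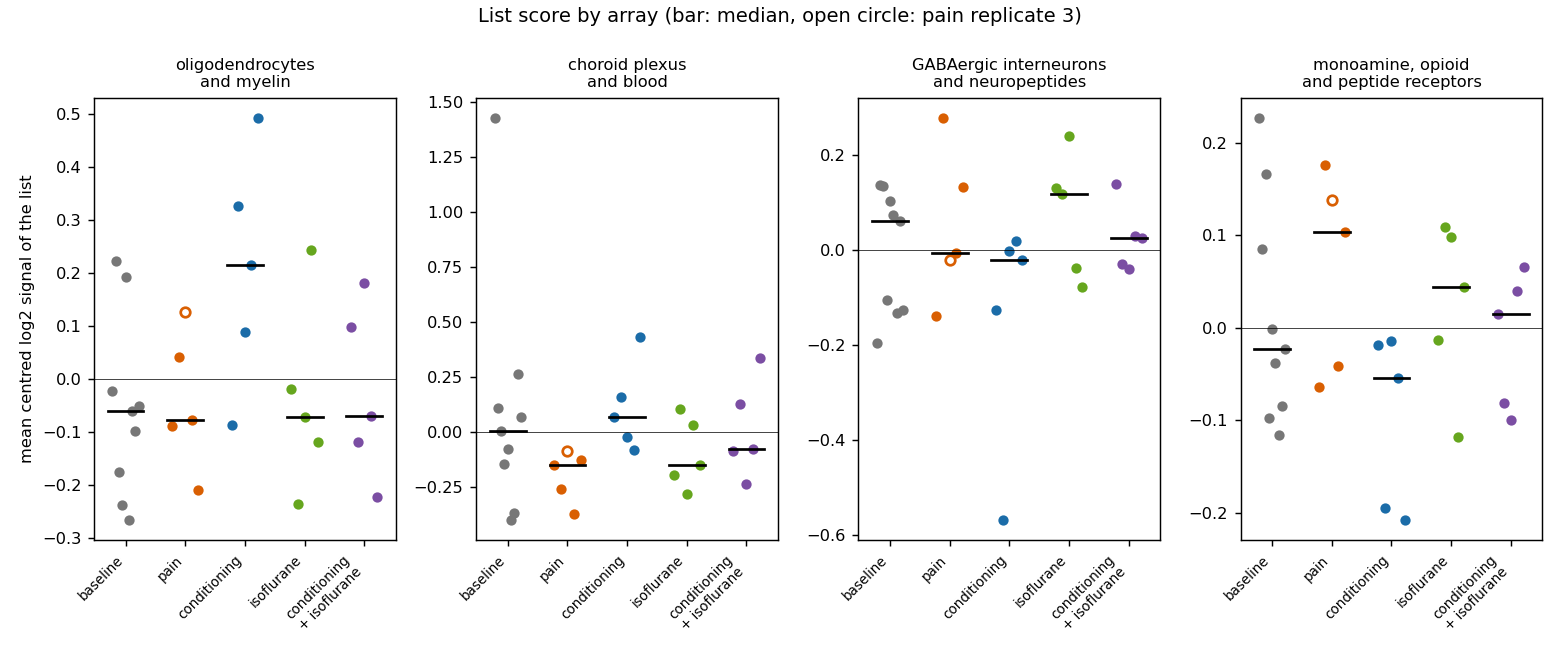
List score, the mean of the members' log2 signal after centring each gene, on each of the 29 arrays by group, with the group median as a bar and pain replicate 3 as an open circle. Scores of conditioning and pain arrays overlap for oligodendrocytes, interneurons and receptors, and do not for choroid plexus and blood.

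The remaining genes named for groups that did not overlap were Apcs and Gigyf2, both lower after conditioning. Apcs, serum amyloid P, read 7.46, 7.56, 7.24, 6.80 and 5.65 after conditioning and 7.81, 7.88, 8.19, 7.71 and 7.61 after pain, a difference of -0.90 (adjusted p 0.394 by limma). The fifth conditioning array was the lowest, and leaving out 1 array at a time moved the difference between -1.06 and -0.57. Gigyf2, a translational repressor, differed by -0.68, and its other tested probe set by -0.16.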

How the data were processed

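The values are linear intensity signals that the authors deposited, 1 column per array. Trimmed by 2% at each end, the signals of every array average 500.08 to 500.12. Software and build are not given in the sources used here. The members and gene lists were chosen with earlier results of these data known.

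The log2 medians of the 29 arrays ranged over 0.47, above the limit of 0.2, so quantile normalization was applied; values under 16 were then set to 16 and log2 was taken. Of 15866 probe sets, 12783 have 1 gene symbol in the platform annotation, 312 several and 2771 none; 12748 were matched by gene identifier to RefSeq names and 0 symbols changed. The filter kept 9520 probe sets whose mean log2 value reached 7.26, the 40th percentile, and left out 6346. The number of arrays limits the precision.

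limma 3.58.1 (R 4.3.3; lmFit with 1 mean per group on all 29 arrays, eBayes with a variance trend) gave differences, standard errors and p-values, adjusted by Benjamini-Hochberg with a threshold of 0.05. The procedure was tested on simulated data. Genes were named by rule: probe sets with 1 symbol, the lowest p per gene, the 12 higher and 12 lower with the lowest p; Plagl2 and Ier5l, singled out by an earlier result; up to 4 per list at an unadjusted p under 0.05; and the 3 largest differences in each direction without overlap. List members with other values are given for their role and were chosen after their values were seen. Lists are described by counts and medians, with no set test. Alternatives were another scaling, filter, floor, variance model, array weights, a replicate block, the 10 arrays alone, and each array left out. P-values measure the spread between arrays, each with its own rat number in these groups.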

Additional observations from a re-analysis of the deposited data

Results flagged for a closer look

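In 18 of 182 groups of 5 values examined, 1 array lay far from the rest by Dixon's criterion (a gap to the nearest value above 0.71 of the range); chance gives about 1 in 20 groups. Of these, 6 fell on pain replicate 3. Its median deposited signal was 292.2 (nearest 244), the share of its probe sets at or below the floor was 0.851% (nearest 6.72%) and its score for voltage-gated ion channels was -0.14. On the same array Hbb read 10.21, Pclo 6.04 and Atf4 11.64.

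Conditioning replicate 1 gave the lowest value of its group for Xab2 (7.43), Slc6a7 (7.91), Kcnd3 (8.58) and Grin2a (4.71, with 7.28 the nearest). Conditioning replicate 2 was lowest for Kcnh1 (7.49) and for the interneuron score (-0.57), and highest for the astrocyte score (0.40). Conditioning replicate 5 was lowest for Mrps25 (10.21), and conditioning replicate 4 was highest for the striatal score (0.40). Pain replicate 1 was highest for Sult1a1 (9.93), pain replicate 2 lowest for Grin2b (6.70), and pain replicate 5 highest for the score of activity-regulated effectors (0.35).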

How the results depend on the processing

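The 24 genes with the lowest p kept their sign in each of 20 settings in which they were tested, and 5 of them passed 0.05 in at least 1. They were chosen on these same arrays, so the kept signs follow in part from that choice. Without a variance trend 2 probe sets were called, 1 higher (Plagl2) and 1 lower (Ier5l). In the fit of the 10 arrays alone the adjusted limma p was 0.322 for Plagl2 and 0.686 for Ier5l. With the deposited scaling it was 0.566 for Plagl2 and 0.527 for Ier5l. Leaving out 1 array at a time, calls ranged from 0 to 3: Ier5l and Washc3 without pain replicate 1, Plagl2 without pain replicate 2, Ppp1r18, G3bp1 and Xab2 without pain replicate 4, and 1 probe set with no single symbol without conditioning replicate 5 (higher 0 to 3, lower 0 to 1). Probe sets without overlap ranged from 139 to 315 (65 to 154 higher, 74 to 169 lower), since 4 against 5 arrays overlap less often by construction. List medians then ranged from -0.0520 to 0.0245 for matrix and adhesion, from 0.0109 to 0.0745 for chromatin regulators and from -0.17 to 0.30 for hypothalamus and thalamus.

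With the deposited scaling 37 were lower without overlap. With arrays centred on their medians, 177 were lower at an unadjusted p under 0.05 and 23 lower without overlap, and list medians were 0.0471 for matrix and adhesion, -0.0037 for heat shock proteins, 0.0416 for oxidative phosphorylation and 0.0856 for chromatin regulators (0.0803 with array weights). Without a filter 1340 were at an unadjusted p under 0.05 (683 lower), as more probe sets were tested. With the filter at the 70th percentile, which leaves 4760 probe sets, there were 418 (202 higher, 216 lower), 49 without overlap (21 and 28), and medians of 0.0610 for glutamate receptors, 0.35 for hypothalamus and thalamus and 0.60 for choroid plexus and blood. For the other moves the cause was not tested.

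Replicate numbers did not pair the arrays: same-numbered arrays correlated between -0.16 and 0.17 in their deviations, 1 pair was above 0.1, and 1 conditioning array correlated best with its own number. With the replicate number as a block limma called 0 (lowest adjusted p 0.0841), with 856 at an unadjusted p under 0.05. The number of genes with the same sign in conditioning under isoflurane minus isoflurane could not be fitted with the 10 arrays alone.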
